A study of Mus musculus with 51 samples.

Results

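Socs1, Socs2, Socs3 and Cish, the cytokine-inducible members of the SOCS (suppressor of cytokine signalling) family, were followed in alveolar macrophages of mice whose lungs had received fungal spores. The 4 genes were taken by the symbol in the annotation of the array platform, out of 12393 genes with a probe set of their own, and 7 probe sets carried their symbols. Each gene was represented by its probe set with the highest mean log2 signal over all 51 arrays, and the other probe sets were used as a check.

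SOCS proteins end the signal of cytokine receptors that work through Janus kinases (JAK) and STAT transcription factors. Phosphorylated STATs enter the nucleus and switch on target genes, among them the Socs genes themselves, whose products bind the receptor or the kinase through an SH2 domain and mark signalling proteins for degradation through a carboxy-terminal SOCS box. Socs3 is best known for restraining the receptors that signal through gp130 and the receptor of granulocyte colony-stimulating factor, Socs1 for restraining interferon signalling, Socs2 for restraining growth hormone signalling, and Cish, named for its cytokine-inducible SH2 domain, is a STAT5 target that restrains STAT5-activating receptors. In macrophages, Socs1 and Socs3 are known to be inducible by microbial products.

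The macrophages came from gp91phox-/- mice (KO), in which Cybb, encoding the gp91phox chain of the enzyme behind the oxidative burst of phagocytes, is disrupted in the whole animal, and from C57Bl/6 mice (WT). Both genotypes were sampled untreated at 0 h and at 2 h and 4 h after mock instillation, after conidia (spores) of Aspergillus fumigatus at the dose labelled e6, and after conidia at the dose labelled e7. WT mice alone were also sampled at 4 h after polystyrene beads. Every KO group held 3 arrays, every WT group 4 and the bead group 2, all labelled biological replicates, with no number of mice behind an array and no age given, so p-values measure the spread between these arrays. For WT mock at 4 h one label field names conidia while the titles name mock treatment, and the titles were followed. The study asked whether the response of alveolar macrophages differs between a normal host and an immune-compromised host prone to invasive aspergillosis, and the labels do not say whether the KO mice shared parents or housing with the WT mice.

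The values were signal intensities of Affymetrix arrays, scaled by the authors to the same trimmed mean of 500.2 on every array, and they are given below as log2 signal. Arrays have no read depth, and the number of arrays limits the precision. Cybb lay between 6.77 and 9.06 on the 21 KO arrays and between 10.59 and 12.12 on the 30 WT arrays, so every array matched its genotype label. The summed signal of the 11 measured marker genes of alveolar macrophages, such as Siglecf, Marco and Fabp4, ranged over 89380 to 114200 on KO arrays and 71270 to 104400 on WT arrays. Of 12 neutrophil marker genes 10 were measured, and their summed signal exceeded 3 times the WT median of 1530 on 3 WT arrays, 1 in each conidia or mock group at 4 h. Within WT at 4 h with e7, arrays 2 and 3 resembled each other (r = 0.967 over 12054 probe sets), as did arrays 1 and 4 (r = 0.963). Between these pairs r was 0.954 and 0.916 for array 1 and 0.918 and 0.875 for array 4. These values single out neither pair, and of the pairs only arrays 2 and 3 were left out below. In bulk RNA, fewer cells of a type and less RNA per cell cannot be told apart.

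The promoters of Cish and Socs3 are shown because both genes changed in these data and both are textbook STAT targets, whose sites are often written TTCNNNGAA. The sequences are from RefSeq on build GRCm38.p6, run 5′ to 3′ on the gene's own strand over 280 bases that end with base 30 of the transcript, and have matches to TTCNNNGAA in capitals (the motif reads the same on both strands). Cish lies at chr9:107296409-107296688 on the plus strand and Socs3 at chr11:117969337-117969616 on the minus strand.
Cish: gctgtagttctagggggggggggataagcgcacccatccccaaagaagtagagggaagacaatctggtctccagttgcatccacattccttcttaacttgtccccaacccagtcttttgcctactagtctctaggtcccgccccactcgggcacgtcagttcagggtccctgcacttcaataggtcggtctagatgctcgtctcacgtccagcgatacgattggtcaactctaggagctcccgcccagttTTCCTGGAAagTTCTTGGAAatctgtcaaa
Socs3: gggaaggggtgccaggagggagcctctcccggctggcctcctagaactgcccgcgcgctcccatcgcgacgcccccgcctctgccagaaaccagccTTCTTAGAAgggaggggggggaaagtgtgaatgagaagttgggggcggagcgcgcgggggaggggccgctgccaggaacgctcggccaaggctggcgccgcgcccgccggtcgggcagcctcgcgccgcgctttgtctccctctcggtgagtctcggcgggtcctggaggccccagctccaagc
The Cish window held 2 matches, TTCCTGGAA beginning at base 1 of the transcript and TTCTTGGAA beginning at base 12, and the first of them also matches the stricter TTCCNGGAA. The Socs3 window held 1 match, TTCTTAGAA, beginning at position -154, where -1 is the base before the start. Of 32851 promoters of the same length, 7.83% held TTCNNNGAA at least once, 0.408% held it at least 2 times and 1.07% held TTCCNGGAA. The Socs1 window held no match to TTCNNNGAA. A match describes the letters only, and no binding was measured.

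Apart from Socs1, whose signal was low throughout, Socs3 had the widest span of log2 signal in the family: in WT macrophages it ran between 7.39 and 12.43 over 30 arrays, and in KO macrophages between 8.07 and 10.86 over 21. In WT at 4 h it was 11.34, 10.46, 12.43 and 10.78 with e7 conidia, against 7.67, 7.85, 11.13 and 7.88 after mock instillation. All 4 e7 arrays lay above 3 of the 4 mock arrays, while mock array 3 stood among the e7 arrays, so the groups overlapped. The e7 group averaged 11.25 ± 0.86 and the mock group 8.63 ± 1.67 (SD, n = 4 each), a log2 difference of 2.62 ± 0.52 (SE) or 6.16-fold, and Socs3 was called higher (limma, adjusted p = 0.000702 over all 22626 probe sets). It was 1 of the 4 family members called there, in a comparison in which 15.5% of all probe sets were called. An exact permutation test on these 8 arrays alone, two-sided, gave p = 0.0857, where 0.0286 is the smallest value it can give.

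**Figure D1:**
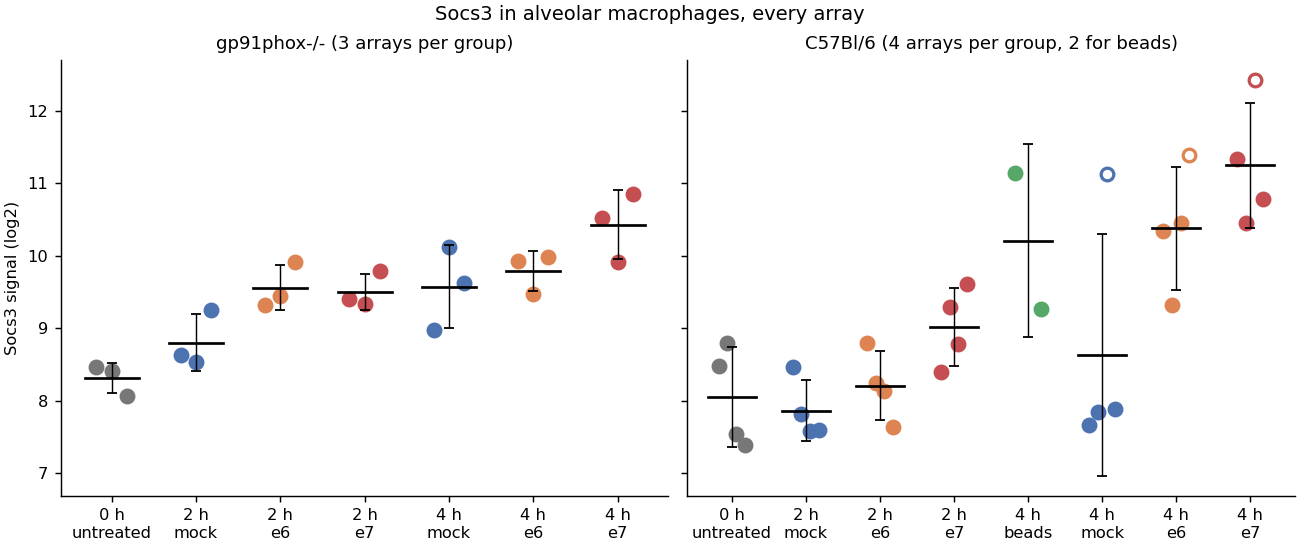
Log2 signal of Socs3 (probe set 1455899_x_at) on every array, KO at left and WT at right, by time and exposure. Points are arrays, thick bars group means, thin bars SD, and open points the 3 WT arrays with high neutrophil marker signal. The highest group mean was 11.25, in WT at 4 h with e7.

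The lower conidia dose and the beads gave WT group means at 4 h between those of mock and e7. Socs3 was 10.35, 9.32, 10.46 and 11.39 with e6 conidia, a difference of 1.75 ± 0.52 from mock that was not called (adjusted p = 0.551; 0.00884% of probe sets were called). The 2 bead arrays lay far apart, at 11.15 and 9.27, and their mean exceeded mock by 1.58 ± 0.63 (adjusted p = 0.187; 1.14% of probe sets called). Mock array 3 decided both calls: without it the difference was 2.58 for e6 (adjusted p = 0.00147) and 2.41 for beads (adjusted p = 0.0288), and for e7 it was 3.45. The bead arrays also had the high 3′ to 5′ signal ratios of the control probe sets, log2 ratios of 4.114 and 5.318, against 1.191 to 2.339 on the mock arrays, and with this ratio as a covariate the bead difference was 1.02 (adjusted p = 0.679).

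Mock array 3 was also the array with the highest neutrophil marker signal, a sum of 26690, against 1298 to 1641 on the other 3 mock arrays. The same held in the conidia groups, where the array highest in Socs3 was the one highest in neutrophil markers: e7 array 3 had 12.43 and a sum of 8880 (1023 to 1537 on the other e7 arrays), and e6 array 4 had 11.39 and a sum of 12620 (1524 to 1809 on the other e6 arrays). Without these 3 arrays, a choice made after seeing the data, Socs3 was higher by 3.06 with e7 (adjusted p = 1.08e-05), by 2.24 with e6 (adjusted p = 0.00336) and by 2.41 with beads (adjusted p = 0.00996). The e7 difference was 2.23 without e7 array 3 alone (adjusted p = 0.00968) and 3.45 without mock array 3 alone. Without e7 arrays 2 and 3, also chosen after seeing the data, it was 2.43 (adjusted p = 0.0467). The share of all probe sets called in that comparison was then 0.902%, with fewer arrays in the e7 group. The part of neutrophil transcripts in these differences was not tested.

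**Figure D2:**
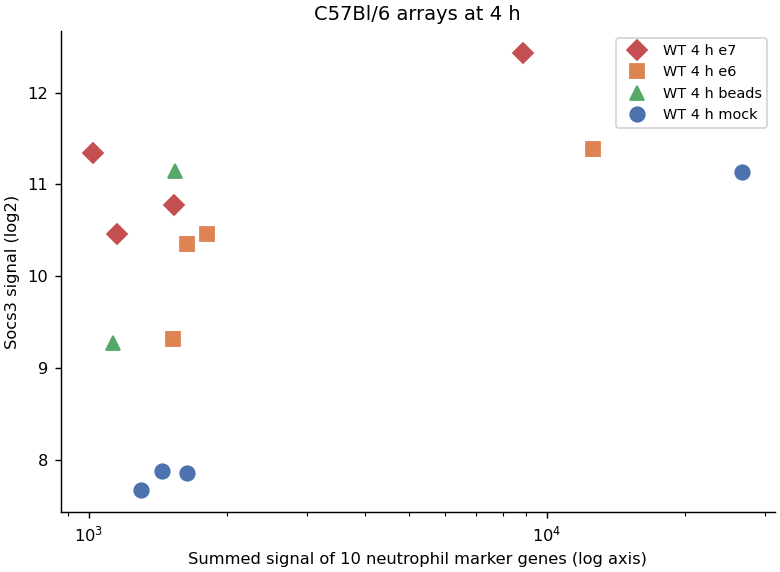
Socs3 log2 signal against the summed signal of 10 neutrophil marker genes (log axis) on the 14 WT arrays at 4 h. In each of the e7, e6 and mock groups the array furthest right is also the highest in Socs3, and the remaining mock arrays, 7.67 to 7.88, lie below all remaining conidia arrays.

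A pair of other probe sets measured Socs3. Probe set 1456212_x_at, which followed the main one over the 51 arrays (r = 0.97), gave 2.47 ± 0.50 for e7 against mock at 4 h and was called (adjusted p = 0.000936). Both it and the main probe set carry the suffix _x_at and may share probes with other transcripts, which was not checked. Probe set 1416576_at had lower signal, under 50 on 16 of 51 arrays (r = 0.61), and gave 1.96 ± 0.75 (adjusted p = 0.0703).

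At 2 h Socs3 in WT was 8.40, 9.29, 8.78 and 9.61 with e7, against 8.47, 7.82, 7.58 and 7.59 after mock. All e7 arrays but 1 lay above all mock arrays, and the difference of 1.16 ± 0.52 was not called (adjusted p = 0.258; 1.61% of probe sets were called). With e6 at 2 h the difference from mock was 0.34 ± 0.52 (no probe set was called; 0%). The e7 response at 4 h exceeded that at 2 h by 1.46 ± 0.73 (adjusted p = 0.298; 2.73% of probe sets called), and by 2.30 without mock array 3 at 4 h (adjusted p = 0.039). Dose against dose, e7 exceeded e6 by 0.81 ± 0.52 at 2 h and by 0.88 ± 0.52 at 4 h, neither called (0% and 16.4% of probe sets). In WT at 4 h, e7 exceeded beads by 1.04 ± 0.63 (adjusted p = 0.361; 3.59% of probe sets called).

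In KO macrophages no conidia comparison was called for Socs3, and after mock instillation at 2 h its KO arrays all lay above those of WT. It was 8.63, 8.53 and 9.25 in KO mock arrays, against 8.47, 7.82, 7.58 and 7.59 in WT mock arrays. The difference between the groups was 0.94 (exact permutation p = 0.0571; 7.99% of probe sets separated in this direction). The KO arrays again lay above all WT arrays with e6 at 2 h, where KO had 9.32, 9.45 and 9.92 and WT had 8.80, 8.24, 8.14 and 7.64 (difference 1.36, exact permutation p = 0.0571; 6.17% of probe sets). Probe set 1456212_x_at gave 1.36 in both conditions, and the low-signal 1416576_at gave 1.97 after mock but -0.02 with e6. With e7 at 2 h the differences were 0.48 on the main probe set, 0.74 on 1456212_x_at and -0.90 on 1416576_at. The summed neutrophil marker signal separated the genotypes after mock and with e6: it was 2932 to 3077 in KO and 1343 to 1924 in WT after mock at 2 h, and 2656 to 3775 in KO and 1452 to 1889 in WT with e6 at 2 h. Of the 10 measured neutrophil markers only S100a8 was called higher in KO as a mean over the 7 conditions and Csf3r was called lower, with median S100a8 signals of 1520 in KO and 234 in WT over all arrays, while Lcn2 had medians of 2.93 and 3.33. Their part in the Socs3 difference was not tested. In untreated mice the genotypes overlapped, with 8.46, 8.41 and 8.07 in KO and 8.48, 8.80, 7.54 and 7.39 in WT (difference 0.26 ± 0.56). All KO mock arrays at 2 h and 4 h lay above the untreated KO arrays, as for 9.95% and 16.3% of probe sets. The differences, 0.49 ± 0.60 and 1.27 ± 0.60, were not called (adjusted p = 0.908 and 0.31, with 0.00442% and 1.2% of probe sets called). In WT mock minus untreated was -0.19 ± 0.52 at 2 h and 0.58 ± 0.52 at 4 h, neither called.

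At 4 h with e7, KO macrophages had 10.52, 9.92 and 10.86, against 8.98, 10.12 and 9.63 in KO mock arrays. All e7 arrays but 1 lay above all mock arrays, and the difference of 0.86 ± 0.60 was not called (95% interval -0.36 to 2.07; adjusted p = 0.846; 0.00442% of probe sets called). The KO response to e7 at 4 h minus the WT response was -1.77 ± 0.79 and was not called (95% interval -3.37 to -0.16, adjusted p = 0.243; 0.19% of probe sets called). This value combines a KO minus WT difference of 0.95 after mock with 1 of -0.82 with e7 (exact permutation p = 0.257). The difference between the responses was -2.60 without WT mock array 3 (adjusted p = 0.0721) and -2.21 without the 3 WT arrays with high neutrophil signal (adjusted p = 0.143). Without WT e7 arrays 2 and 3 it was -1.57 (adjusted p = 0.67). Over 26 alternatives it ran between -2.60 and -1, and none was called. At 2 h the KO differences from mock were 0.76 ± 0.60 with e6 and 0.70 ± 0.60 with e7, neither called (0% and 8.65% of probe sets called). For both doses all 3 conidia arrays lay above all 3 mock arrays, as they did for 4.98% of probe sets with e6 and 26.6% with e7. On probe set 1456212_x_at these groups overlapped, with means of 8.61 after mock and 8.92 with each dose. At 2 h the low-signal probe set 1416576_at ran the other way, at -1.40 ± 0.86 with e7 (adjusted p = 0.307). At 4 h with e7, 1456212_x_at had 9.78, 9.77 and 10.42 in KO, all above KO mock at 8.22, 9.32 and 8.84 (as for 7.21% of probe sets).

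Averaged over the 7 conditions both genotypes had, Socs3 was 0.37 ± 0.21 higher in KO than in WT and not called (adjusted p = 0.179), in a comparison in which 33.4% of probe sets were called. It was called without WT mock array 3 at 4 h (0.49, adjusted p = 0.0225), without the 3 WT arrays with high neutrophil signal (0.59, adjusted p = 0.00245) and for probe set 1456212_x_at (0.52 ± 0.21, adjusted p = 0.0476). The sign of the genotype difference was not the same in all conditions: KO means were above WT means in 5 conditions and below them at 4 h with e6 (-0.58) and with e7 (-0.82).

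Cish was higher in WT macrophages at 2 h with e7 conidia than after mock. The e7 arrays overlapped those of untreated WT (mean 9.69), and the mock arrays lay below both. Cish was 9.55, 9.79, 9.94 and 9.87 with e7, against 9.02, 8.61, 8.80 and 8.84 after mock. The groups did not overlap, as for 5.1% of probe sets in this direction. The means were 9.79 ± 0.17 and 8.82 ± 0.17 (SD, n = 4 each), the difference was 0.97 ± 0.22 or 1.96-fold, and Cish was the 1 family member called (limma, adjusted p = 0.0169; exact permutation p = 0.0286, the smallest possible). Log2 3′ to 5′ ratios were 2.094 to 4.854 on the e7 arrays and 0.9303 to 1.472 on the mock arrays, and with the ratio as a covariate the difference was 1.11 (adjusted p = 0.0349). The call was lost when e7 array 4 (adjusted p = 0.0517), mock array 2 (adjusted p = 0.0881) or mock array 3 (adjusted p = 0.0571) was left out. It was also lost when only these 2 groups entered the fit (adjusted p = 0.128).

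With e6 at 2 h Cish was 9.70, 9.20, 9.34 and 9.69 in WT. All 4 arrays lay above all 4 mock arrays, as for 1.33% of probe sets, and the difference of 0.67 ± 0.22 was not called in a comparison with no call at all. In WT the 2 h series therefore ran 8.82 after mock, 9.48 with e6 and 9.79 with e7, and e7 against e6 differed by 0.30 ± 0.22. In KO macrophages the same series ran 9.36 ± 0.37, 9.23 ± 0.09 and 9.43 ± 0.24 (SD, n = 3 each). The e7 difference from mock in KO was 0.07 ± 0.25, with a 95% interval of -0.45 to 0.58. The KO response to e7 at 2 h minus the WT response was -0.90 ± 0.34 (95% interval -1.58 to -0.22) and was not called (adjusted p = 0.167; 1.45% of probe sets called), though it was with array weights (-0.96, adjusted p = 0.036). This value combines a KO minus WT difference of 0.54 after mock with 1 of -0.36 with e7.

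At 4 h the WT e7 arrays split in Cish. Arrays 1 and 4 had 9.41 and 9.73, above all mock arrays (8.71, 8.55, 9.12 and 8.95), and arrays 2 and 3 had 8.43 and 8.32, below them. The group mean exceeded mock by 0.14 ± 0.22 (adjusted p = 0.75), and by 0.74 when arrays 2 and 3 were left out (adjusted p = 0.0781). The change of the WT e7 response between the time points, 4 h minus 2 h, was -0.83 ± 0.31 (adjusted p = 0.147) and was called without e7 array 4 at 4 h (-1.08, adjusted p = 0.0122), but was -0.23 without e7 arrays 2 and 3 (adjusted p = 0.834) and -0.51 without the arrays with high neutrophil signal (adjusted p = 0.503). Beads at 4 h gave 9.79 and 9.16, both above all mock arrays (difference 0.64 ± 0.27, adjusted p = 0.207; 15.6% of probe sets did not overlap in this direction). For e6 at 4 h the difference was 0.33 ± 0.22. In KO at 4 h it was 0.39 ± 0.25 with e6 and 0.38 ± 0.25 with e7, neither called (0.0796% and 0.00442% of probe sets).

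**Figure D3:**
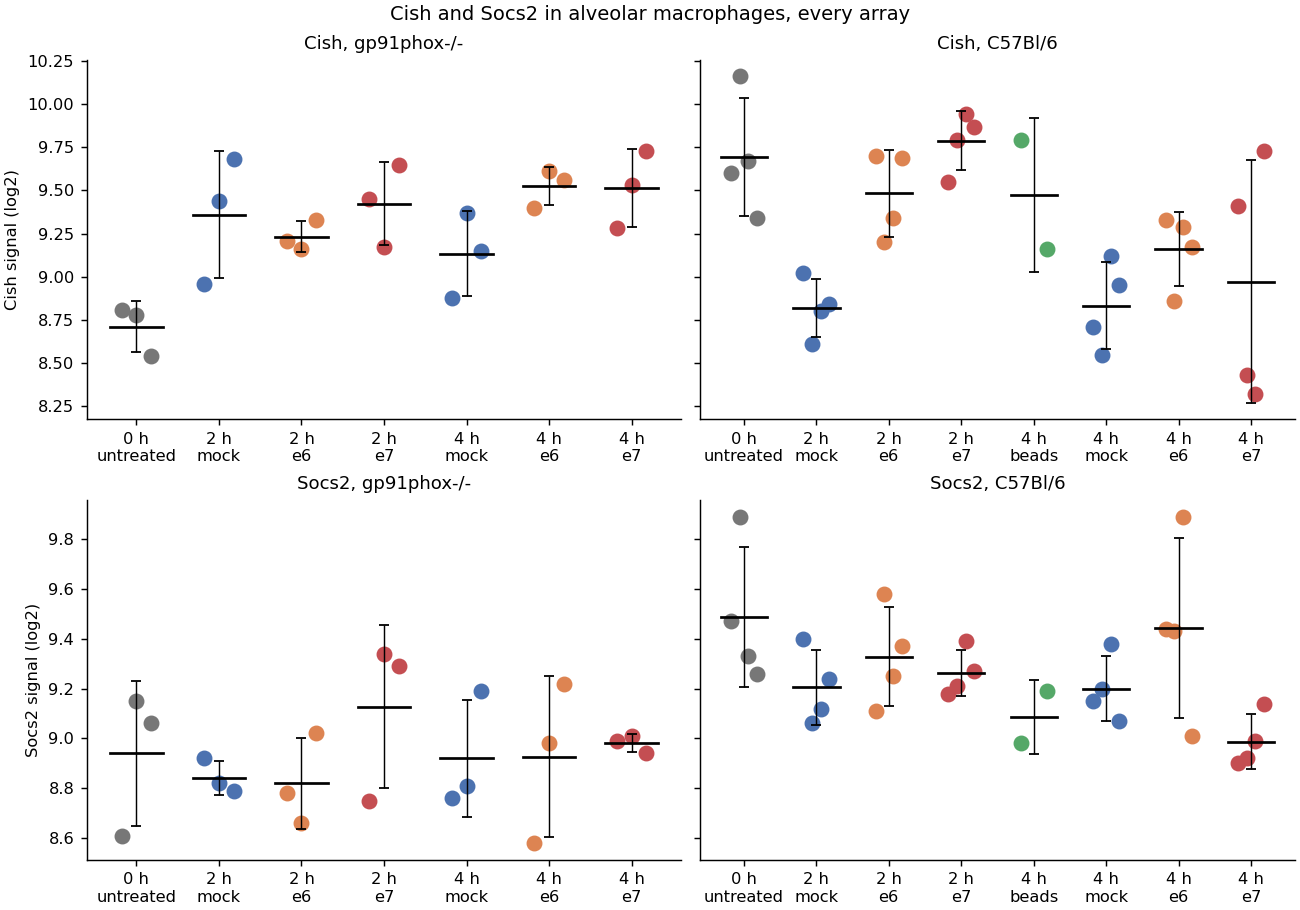
Log2 signal of Cish (upper panels) and Socs2 (lower panels) on every array, KO at left and WT at right. Points are arrays, thick bars group means and thin bars SD. Untreated Cish is lowest of the KO groups (8.71) and near the top of the WT groups (9.69), and the WT e7 arrays at 4 h split into 9.41 and 9.73 against 8.43 and 8.32.

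Untreated macrophages differed in Cish between the genotypes. It was 8.81, 8.78 and 8.54 in KO, against 9.60, 10.16, 9.67 and 9.34 in WT. Every KO array lay below every WT array, as for 8.33% of probe sets. The means were 8.71 ± 0.15 (SD, n = 3) and 9.69 ± 0.34 (SD, n = 4), the difference was -0.98 ± 0.24, and Cish fell in KO relative to WT (limma, adjusted p = 0.0188; exact permutation p = 0.0286, the smallest possible). It was 1 of 4 family members called, and 1.99% of probe sets were called. Without WT array 2 the value was -0.83 (adjusted p = 0.0886), and leaving out any 1 of the 3 KO arrays also ended the call, with adjusted p between 0.054 and 0.0735.

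As a mean over the 7 conditions the genotype difference in Cish was 0.02 ± 0.09 (95% interval -0.16 to 0.20), and the conditions differed in sign. KO minus WT was -0.98 untreated, -0.25 with e6 and -0.36 with e7 at 2 h, but 0.54 after mock at 2 h and 0.30 after mock, 0.36 with e6 and 0.54 with e7 at 4 h. With e6 at 4 h all 3 KO arrays (9.40, 9.61 and 9.56) lay above all 4 WT arrays (9.33, 8.86, 9.29 and 9.17; exact permutation p = 0.0571), as for 21.6% of probe sets. After mock instillation Cish lay on opposite sides of the untreated level in the 2 genotypes, with no difference called. At 2 h the KO mock arrays had 8.96, 9.44 and 9.68, all above the 3 untreated KO arrays (0.65 ± 0.25, adjusted p = 0.529), while all 4 WT mock arrays lay below all 4 untreated WT arrays (-0.88 ± 0.22, adjusted p = 0.137). At 4 h the KO mock arrays had 8.88, 9.37 and 9.15 (0.43 ± 0.25, adjusted p = 0.443) and the WT mock arrays had 8.71, 8.55, 9.12 and 8.95 (-0.86 ± 0.22, adjusted p = 0.196), again without overlap with the untreated arrays of their genotype. Such separation held for 9.95% and 16.3% of probe sets upward in KO at 2 h and 4 h and for 3.77% and 3.02% downward in WT. All 4 of these differences use the untreated arrays of their genotype, so the 2 h and 4 h values share them. The share of probe sets called was 0.00442% and 1.2% in KO at 2 h and 4 h and 0.00442% and 0.0133% in WT.

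The test of the difference between the genotypes, added after seeing the data, gave 1.52 ± 0.34 at 2 h (adjusted p = 0.192, with no probe set called) and 1.28 ± 0.34 at 4 h (adjusted p = 0.0987; 0.137% of probe sets called). With array weights both were called, at 1.52 (adjusted p = 0.00887) and 1.23 (adjusted p = 0.0179), and so were the WT differences, at -0.85 (adjusted p = 0.018) for 2 h and -0.88 (adjusted p = 0.0188) for 4 h. Log2 3′ to 5′ ratios were 0.9303 to 1.472 on the WT mock arrays at 2 h and 1.646 to 3.917 on the untreated WT arrays. With the ratio as a covariate the 2 h difference in WT was -0.99 and the difference between the genotypes 1.57 (adjusted p = 0.121).

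Socs2 was lower in KO than in WT, and no conidia or bead comparison against mock was called for it. Averaged over the 7 shared conditions the difference was -0.34 ± 0.07 (limma, adjusted p = 0.000135), and for the second probe set, 1449109_at, it was -0.46 ± 0.08 (adjusted p = 4.45e-05). Socs2 was the 1 family member called by its main probe set there, but 33.4% of all probe sets were called, so the call by itself does not set the gene apart. It was called under all 60 alternative settings tried, with values between -0.46 and -0.31. Over all arrays of a genotype, Socs2 had a median of 8.94 (8.58 to 9.34) in KO and of 9.23 (8.90 to 9.89) in WT. The 2 probe sets, which share a mean near 9.1, correlated with r = 0.62 over the 51 arrays.

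Condition by condition, all 3 KO arrays of Socs2 lay below all WT arrays in 3 of 7 conditions on the main probe set. In untreated mice it was 8.61, 9.15 and 9.06 in KO, against 9.47, 9.89, 9.33 and 9.26 in WT (-0.55 ± 0.17, adjusted p = 0.0993, called with array weights at an adjusted p of 0.0164; 8.33% of probe sets did not overlap in this direction and 1.99% were called). After mock at 2 h it was 8.92, 8.82 and 8.79 in KO, against 9.40, 9.06, 9.12 and 9.24 in WT (-0.36, exact permutation p = 0.0286; 9.15% of probe sets did not overlap in this direction). With e6 at 2 h it was 8.78, 8.66 and 9.02 in KO, against 9.11, 9.58, 9.25 and 9.37 in WT (-0.51, exact permutation p = 0.0571; 5.23% of probe sets). The genotypes met at 4 h with e7, at 8.99, 9.01 and 8.94 in KO and 8.90, 8.92, 8.99 and 9.14 in WT (-0.01, exact permutation p = 0.943). The second probe set gave -0.13 in that condition and values between -0.87 and -0.48 in 5 of the other 6. Of the 3 conditions above it separated the genotypes only in untreated mice (-0.60), not after mock (0.02) or with e6 (-0.51) at 2 h. It did separate them with e7 at 2 h (-0.62) and with e6 at 4 h (-0.87, each exact permutation p = 0.0286), where the main probe set overlapped.

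In WT at 4 h Socs2 was 8.90, 8.92, 8.99 and 9.14 with e7, against 9.44, 9.43, 9.89 and 9.01 with e6. All e7 arrays but 1 lay below all e6 arrays, and Socs2 was called lower (-0.46 ± 0.16, adjusted p = 0.0478), where 16.4% of probe sets were called. This call was just under the threshold and was lost in 11 of 19 alternative settings, including quantile normalization (-0.35, adjusted p = 0.182), the second probe set (-0.48, adjusted p = 0.106) and leaving out e6 array 3 (-0.31, adjusted p = 0.254). Against mock the e7 difference was -0.21 ± 0.16 at 4 h (adjusted p = 0.437) and 0.06 ± 0.16 at 2 h, where the second probe set gave 0.52 ± 0.20 (adjusted p = 0.175). In KO no Socs2 comparison was called, and the differences from mock lay between -0.02 and 0.28.

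**Figure D4:**
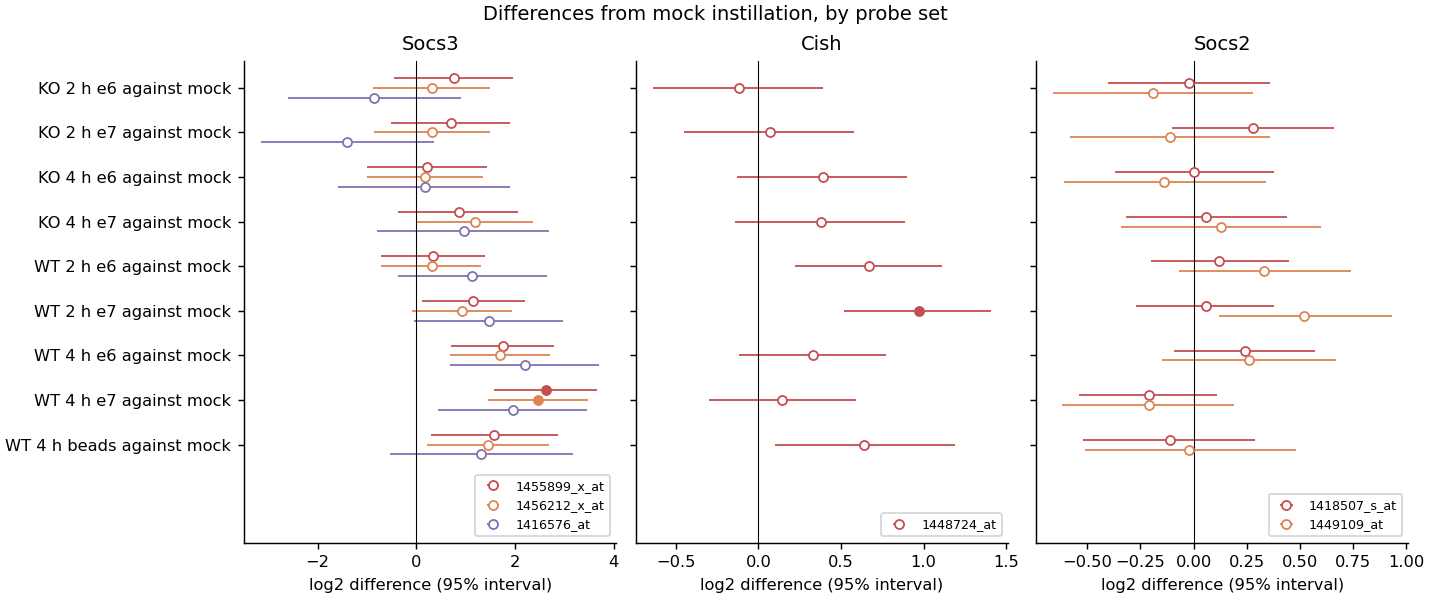
Log2 differences of each conidia or bead group from the mock group of its genotype and time, for 3 probe sets of Socs3, 1 of Cish and 2 of Socs2. Points are limma estimates, lines 95% intervals, and filled points have an adjusted p under 0.05. Filled are 2 Socs3 probe sets in WT at 4 h with e7 and Cish in WT at 2 h with e7.

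Socs1 gave low signal. Its 1 probe set, 1450446_a_at, lay under a signal of 50 on 50 of 51 arrays, with a mean log2 signal at percentile 6.6 of all probe sets. On the log2 scale it ran between 0.32 and 6.39 in KO and between 0.17 and 5.20 in WT, and arrays of 1 group spread widely: WT with e7 at 4 h averaged 2.40 ± 2.14 and WT mock 1.60 ± 0.66 (SD, n = 4 each; difference 0.80 ± 0.96). KO mock at 4 h against untreated KO gave 2.75 ± 1.11 (adjusted p = 0.216). No Socs1 comparison was called, and at this signal a change could not be measured with any precision. A low signal of 1 probe set does not show that the transcript was absent.

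Ordered by group mean, Socs3 was highest in WT at 4 h with e7 (11.25) and lowest in WT mock at 2 h (7.86). Cish was highest in WT at 2 h with e7 (9.79) and lowest in untreated KO macrophages (8.71). Socs2 was highest in untreated WT (9.49) and lowest in KO at 2 h with e6 (8.82). The extremes of the 3 genes thus fell in different groups. Along each order of 15 groups, none of the 14 steps between neighbours exceeded the larger of the 2 SDs with arrays that did not overlap. Sorting by the mean makes steps between neighbours small, so this says nothing about groups further apart in the order.

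The genes with the most similar course were sought among those with a mean log2 signal of at least 8, by Pearson correlation over the 15 group means. For Socs3 they were Il1b (r = 0.93), Icam1 (r = 0.93), Tnf (r = 0.90), Cxcl2 (r = 0.89) and Egr1 (r = 0.87), which are 2 inflammatory cytokines, an adhesion molecule, a neutrophil chemokine and an immediate-early transcription factor. For Socs2 they were Rbm42, Myo7a, Nek7, Aldh18a1 and Akna (r = 0.90 to 0.88). For Cish the likeness was weaker, with 1700037H04Rik, Sav1, Mnt, Cnnm3 and Kansl1 (r = 0.81 to 0.79), and for Socs1, at its low signal, the closest was Kif1c (r = 0.70). These correlations describe the group means, which come from the same arrays for every gene.

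Of 92 other genes of the pathway, from receptors and ligands to STAT targets, 84 were measured. The other 4 SOCS box genes, Socs4 to Socs7, were not called in any conidia or bead comparison against mock. In WT at 4 h with e7, where Socs3 rose, 4 of the 84 were called higher and 15 lower (5.84% and 9.68% of all probe sets), with a median of -0.08 against -0.07 over all probe sets.

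Among the 14 STAT target genes, 3 rose and 3 fell there. Irf1, an interferon-inducible transcription factor, rose by 0.86 ± 0.13 (adjusted p = 5.82e-05), with 4 of 4 e7 arrays above all mock arrays, as for 4.11% of probe sets. Cxcl10, an interferon-inducible chemokine, rose by 1.46 ± 0.36, and Pim1, a cytokine-induced kinase, by 1.16 ± 0.26. Cebpd, a transcription factor induced through STAT3, fell by 1.40 on the log2 scale (-1.40 ± 0.23, 4 of 4 arrays below all mock arrays, as for 5.56% of probe sets), Myc fell by 1.19 (-1.19 ± 0.33) and the interferon-inducible GTPase Gbp2 fell by 0.59 (-0.59 ± 0.19).

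The signalling components called in WT at 4 h with e7 were mostly lower. Elob, the elongin B that links the SOCS box to its ubiquitin ligase, fell by 1.02 (-1.02 ± 0.20), and Cul2, a cullin scaffold, by 0.45 (-0.45 ± 0.10). Jak1 (-0.65 ± 0.22) and Stat6 (-0.57 ± 0.20) were called lower, as were the STAT inhibitors Pias1 (-0.71 ± 0.16) and Pias2 (-0.73 ± 0.17) and the phosphatase Ptpn6 (-1.0 ± 0.25). Ptpn11, the phosphatase SHP2, was the 1 inhibitor called higher (0.48 ± 0.15). Of 23 receptor genes 4 fell, Ifnar2, Csf2ra, Csf3r and Il12rb2, with values between -0.81 and -1.10, and of 19 ligands only Il15 was called (-0.76 ± 0.24). Csf3r is itself one of the neutrophil markers.

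Fewer pathway genes were called in 2 fits that left arrays out. Without the 3 arrays with high neutrophil signal 4 were called higher and 5 lower. Over all 22626 probe sets the counts were 511 and 654 there, against 1321 and 2191 with all arrays. Leaving out e7 arrays 2 and 3 was also a choice made after seeing the data. It left arrays 1 and 4 alone in the e7 group, so calls could be lost through the smaller group. In that fit the 1 pathway gene still called was Irf1 (0.97), with 96 probe sets called higher and 108 lower. The estimates of Cxcl10 and Pim1 in that fit, 1.70 and 1.03, were of the same direction but not called. Of the genes called lower with all arrays, some had estimates in that fit near their full values, such as Csf3r (-1.02), Il12rb2 (-1.03), Il15 (-0.93), Cul2 (-0.41), Gbp2 (-0.51) and Pias2 (-0.61), while Jak1, Stat6 and Ptpn6 were at -0.08, 0.01 and -0.22. None of these 9 was called there.

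**Figure D5:**
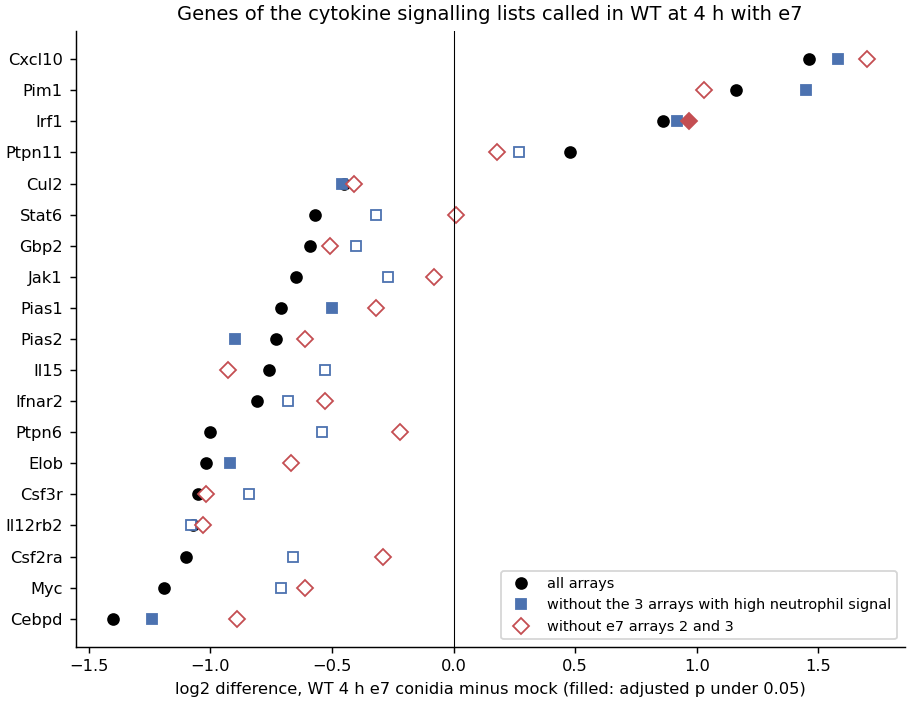
Log2 differences between e7 and mock in WT at 4 h for the 19 pathway genes called with all arrays (black circles), without the 3 arrays with high neutrophil signal (blue squares) and without e7 arrays 2 and 3 (red diamonds). Filled points have an adjusted p under 0.05, and Irf1 is the 1 gene filled in all 3 fits.

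In WT at 2 h with e7, where Cish was higher than after mock, 1 of the 84 pathway genes was called, against 1.61% of all probe sets. Ifnar1, a chain of the type I interferon receptor, was higher by 0.58 ± 0.16 (adjusted p = 0.0466). After quantile normalization none of the 84 was called. In KO at 2 h with e7, 6 were called higher and 1 lower (6.11% and 2.54% of all probe sets). Stat3 rose by 0.95 ± 0.23, Stat5b by 1.01 ± 0.22 and Il6st, the gp130 receptor chain, by 0.75 ± 0.20, each with all 3 e7 arrays above all 3 mock arrays, as for 26.6% of all probe sets there, and Elob fell by 0.72 (-0.72 ± 0.23). The other 3 were the ligands Il2, Il3 and Il13, all near the low end of the signal, where the differences were 0.13, 0 and 0 once signals under 50 were set to 50. The median over all genes was 0.23 in this comparison and 0.02 after quantile normalization, which gave Stat3 0.97, Stat5b 0.96 and Il6st 0.77. After that normalization 4 of the 84 were called higher and 2 lower, and the balance over all probe sets turned, with 640 called higher and 933 lower, against 1382 higher and 575 lower without it. Socs3 and Cish, both targets of STATs, were not called in that comparison (0.70 ± 0.60 and 0.07 ± 0.25). In KO at 4 h with e7 and in WT at 4 h with beads none of the 84 was called, where 0.00442% and 1.14% of all probe sets were.

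Between the genotypes, as a mean over the 7 conditions, 23 of the 84 pathway genes were called higher in KO and 7 lower (21.9% and 11.6% of all probe sets). This balance depended on the scaling: after quantile normalization 17 of the 84 were called higher and 11 lower, and over all probe sets 2847 were called higher and 3721 lower. Il7r, the interleukin-7 receptor chain, was higher in KO by 4.18 ± 0.18, Stat4 by 2.66 ± 0.39, Il12b by 1.54 ± 0.16, Epor by 0.63 ± 0.08 and Il10rb by 0.57 ± 0.06. Csf3r (-0.75 ± 0.12), Il6ra (-0.74 ± 0.20), Cebpd (-0.64 ± 0.09) and Myc (-0.62 ± 0.14) were lower. Stat4 lay near the low end, and its difference was 0.42 with signals under 50 set to 50. Of 19 ligands 8 were called higher, of which Il12b alone kept the call with that floor (0.89).

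Of 8 measured T and NK cell markers 6 were also called higher in KO, with a median of 1.37. Most lay under a signal of 50, with KO medians of 15.9 for Cd3e, 4.46 for Cd3d and 36.2 for Cd4, and with signals under 50 set to 50 the median of the list was 0.07 and 4 were called. Some dim markers of other cell types were called higher in KO too. They were 2 of 6 for monocytes and dendritic cells, 1 of 4 for B cells and 4 of 8 for endothelium and stroma. Among them were Flt3 of dendritic cells (medians of 63.6 in KO and 28 in WT), Pax5 of B cells (11.5 and 4.27) and Col1a1 of stroma (39 and 14.7). Others in these lists were not called and had lower medians in KO, such as Xcr1 (15.7 and 19.8), Cd79b (8.68 and 10.4) and Col3a1 (11.1 and 17.2). With the floor, Flt3 and Col1a1 were still called and Pax5 was not. The summed signal of the T and NK cell markers was 3545 to 6708 in KO and 2837 to 6607 in WT, most of it from Cd2 (3130 to 6570 in KO and 2630 to 6500 in WT), while Cd3e did not exceed 43.7 in KO or 46.7 in WT. The part of other cells in the receptor and ligand differences was not tested. In untreated mice, where Cish was lower in KO, Il7r (4.06 ± 0.47) and Eloc (0.60 ± 0.15) were higher in KO and Cebpd (-1.37 ± 0.25) and Il4ra (-1.17 ± 0.32) lower.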

How the data were processed

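The authors deposited 1 signal intensity per probe set and array on a linear scale; GCOS and RMA are named as tools, per the submitters' processing notes, with no role or version. Every array had the same mean after trimming 2% at each end (500.2). Labelling started from 100 ng RNA, per the labels' protocols.

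Of 22690 probe sets, 64 controls were left out and 22626 tested; 20380 had 1 gene symbol, 691 several and 1555 none. Log2 of the signal was taken with no pseudocount, filter or further normalization. Differences came from limma 3.58.1 in R 4.3.3, with 1 mean per group over all 51 arrays, and p-values were two-sided, adjusted by Benjamini-Hochberg over all probe sets within each of 29 comparisons and called under 0.05. Errors after a difference are SE. Because the spread is pooled over 15 groups, it understates the error of a group that varies more. The fit was tested on simulated data.

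Alternatives were quantile normalization, a floor of 50, log2(signal + 16), a filter at mean log2 of 6, replicate block, 3′/5′ ratio covariate, array weights, only the groups compared, other probe sets and leaving out arrays. Same-numbered arrays correlated weakly in their deviations (161 pairs, r from -0.1 to 0.08), yet 26 of 51 arrays correlated best with their own number. Whether the numbers pair arrays was not settled. The main fit did not pair them, and the replicate block was an alternative. Members, lists and tests were chosen with earlier results of these data known. Named genes were the 4 members, pathway list genes (called ones first), the 5 nearest patterns per member and Cybb.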

Additional observations from a re-analysis of the deposited data

Results flagged for a closer look

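Among 28 tests, each of 1 family member in 1 WT group of 4 arrays, 3 flagged an array apart from the other 3. Chance alone flags about 1 in 20 tests, and the KO and bead groups, with fewer arrays, were not tested. Socs3 in WT mock at 4 h was 11.13 on array 3, against 7.67 to 7.88 on the other arrays, and this array also had the highest neutrophil marker signal. For Socs1, at low signal throughout, array 3 of untreated WT had 0.25 and array 3 of WT mock at 2 h had 4.02.

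On every KO mock array Cish lay above the untreated arrays of its genotype, and on every WT mock array below them. The difference between the genotypes was 1.52 at 2 h (adjusted p = 0.192) and 1.28 at 4 h (adjusted p = 0.0987), neither called, and both rest on the same untreated arrays.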

How the results depend on the processing

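Over 116 results and 2250 alternative values no called difference changed sign, and 22 values lost a call while 17 gained one. Among the called differences, Socs2 in KO against WT as a mean over 7 conditions kept its call in 60 of 60 alternatives. Socs3 in WT at 4 h with e7 against mock kept it in 18 of 20 and ranged over 2.23 to 3.45 when 1 array was left out; it was lost with only the groups compared (2.62, adjusted p = 0.276) and for probe set 1416576_at (1.96). Cish in WT at 2 h with e7 against mock kept it in 12 of 16, ranged over 0.90 to 1.05 with 1 array left out, and lost it with only the groups compared (0.97, adjusted p = 0.128). Cish in KO against WT untreated kept it in 10 of 15, ranged over -1.10 to -0.83 with 1 array left out, and lost it with only the groups compared (-0.98, adjusted p = 0.175). Socs2 in WT at 4 h with e7 against e6 ranged over -0.60 to -0.31 with 1 array left out and lost its call under quantile normalization (-0.35), array weights (-0.49), only the groups compared (-0.46), the second probe set (-0.48) and without both e7 arrays 2 and 3 (-0.42). Calls were gained for Socs3 in WT at 4 h without the 3 arrays with high neutrophil signal (e6 2.24, beads 2.41), for Cish in WT mock against untreated with array weights (2 h -0.85, 4 h -0.88), and with 1 array left out, where Socs3 ranged over 1.41 to 2.58 with e6 and 0.64 to 2.52 with beads. With the replicate block Cish in WT at 2 h with e7 stayed at 0.97 (adjusted p = 0.0125), and untreated Socs2 in KO against WT gained a call (-0.64, adjusted p = 0.0428); the count of all called probe sets was 3220 with the block and 7562 without it for KO against WT as a mean, and 1201 with it and 450 without it untreated. Of 51 arrays, 26 correlated best with their own number. With only the groups compared, the SE was 0.83 for Socs3 and 0.23 for Socs2 (0.52 and 0.16 with the spread of all groups), as these groups varied more, and 0.15 and 0.22 for the 2 Cish calls (0.22 and 0.24). Signals near the low end of the scale, Socs1 among them, limit what can be measured.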
